A study of Mus musculus with 8 samples.

Results

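The genes described here encode the proteins of the cytosolic ribosome, and they were measured in Musashi 2 (Msi2) knockout and control mouse blood stem and progenitor cells. Members were chosen by symbol: Rpl or Rps followed by a digit, or Rpsa, Rplp0, Rplp1 or Rplp2, leaving out the Rps6k kinases and symbols with ps or l after the number. Of 18194 named genes, 44 met this rule on probe sets that name 1 gene, and 42 of them had a measured signal, among 10720 measured genes in all. The measured members comprised 22 proteins of the large subunit, 19 of the small subunit and Rps19bp1, which encodes a binding partner of Rps19 and no subunit of the ribosome. Rps16 and Rps27 were listed at 0 on all arrays on such probe sets. Several well-known members, among them Rpl3, Rpl5, Rpl10 and Rplp1, lay only on probe sets that name several genes, mostly processed copies, and therefore fell outside the rule.

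The study compared LSK cells, the lineage-negative, Sca-1-positive and Kit-positive fraction of bone marrow that contains the blood stem cells, from 4 wild-type control mice and 4 mice with a conditional Msi2 knockout. Total RNA from each animal was hybridised to its own Affymetrix array, giving 4 control and 4 Msi2 KO arrays. The driver of the conditional deletion, the age and the sex of the animals were not given in the sources used here. Values are log2 signals after robust multi-array averaging (RMA), and differences are KO minus control on that scale.

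A ribosome joins a large subunit, which forms peptide bonds, to a small subunit, which reads the messenger RNA, and each contains a single copy of most of its proteins. Messengers for these proteins usually begin with a C followed by a run of pyrimidines, the terminal oligopyrimidine (TOP) tract, through which growth signalling controls their translation as a group. Blood formation is known to be sensitive to ribosomal protein dosage: inherited loss of a single copy of one of several such genes causes Diamond-Blackfan anaemia. Msi2 is an RNA-binding protein of blood stem cells that acts on the stability and translation of messengers.

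Promoter sequences were matched for 38 of the 43 subunit genes, from RefSeq windows on the GRCm38.p6 build that run from 250 bases before to 50 bases after an annotated start. A C at the start followed by at least 4 C or T bases was found in 8 of the 38 genes (21.1%) and in 3.01% of the 27025 genes in the table, on the gene's own strand. The looser search, for a C and at least 6 C or T bases within 10 bases before to 15 after the start, found 18 of 38 (47.4%) against 13.2% of all genes, and these included all 8. CCGGAAG, searched on both strands, was present in the windows of 19 of 38 genes against 9.93% of all. Other letters searched on both strands were GGGCGG in 22 of 38 (57.9% against 38.2%), AAGATGGC in 3 (7.89% against 3.19%) and TATAAA in 5 (13.2% against 15.7%). The following 6 stretches, 60 bases before to 15 after the start, are shown because they carry the pyrimidine run and include members with and without separated groups in the values below. Capitals mark the run of C and T bases that opens at the start, and CCGGAAG where it lies within the stretch.
Rplp2, chr7:141447591-141447665, plus strand: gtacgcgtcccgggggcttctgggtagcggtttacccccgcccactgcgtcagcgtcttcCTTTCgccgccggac
Rps10, chr17:27635230-27635304, minus strand: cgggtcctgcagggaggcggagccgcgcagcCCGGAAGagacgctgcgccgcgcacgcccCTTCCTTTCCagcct
Rpl38, chr11:114668520-114668594, plus strand: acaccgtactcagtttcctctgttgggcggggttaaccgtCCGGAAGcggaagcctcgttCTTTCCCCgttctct
Rpl35, chr2:39005117-39005191, minus strand: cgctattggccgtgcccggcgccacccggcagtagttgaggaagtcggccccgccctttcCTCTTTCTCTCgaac
Rps18, chr17:33955651-33955725, minus strand: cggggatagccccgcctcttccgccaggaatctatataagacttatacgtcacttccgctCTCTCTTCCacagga
Rps6, chr4:86857353-86857427, minus strand: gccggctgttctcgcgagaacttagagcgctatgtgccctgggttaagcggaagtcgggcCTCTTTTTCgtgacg
The run was 5 bases long in Rplp2, 8 in Rpl38, 9 in Rps18 and Rps6, 10 in Rps10 and 11 in Rpl35. Each match describes letters in these windows and not a site of binding or control.

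The arrays differed in ways that bear on the members. Msi2 itself, at 90.9% to 108% of the control mean on the controls, was at 88.9%, 79.2%, 14.3% and 45.0% on KO 1 to KO 4. Xist was low on control 1, KO 1 and KO 2 (log2 4.79 to 5.55) and high on the other arrays (11.9 to 12.5). KO 3 stood apart on the first principal component of all genes (50.5 against -26.7 to 10.99, 32.4% of the variance) and had the widest gap between the 3′ and 5′ actin probe sets (0.29 against -0.12 to 0.13). On the Gapdh probe sets the same gap was 1.70 on KO 3, within the controls (1.64 to 1.73). There KO 2 was the highest array at 1.85 and KO 4 the lowest at 1.35. Of the LSK markers, Kit, Cd34, Flt3, Slamf1 and Ptprc were measured, with 1 of 5 higher in KO. Markers of other cells differed in mean between the groups, though the summed levels of the groups overlapped for every list. Of the erythroid genes, 8 of 9 were higher in KO (median 1.37, summed level 12.8 to 13.4 in controls and 13.3 to 14.2 in KO, with Alas2 and Hba-a1 at 0). So were 4 of 5 mast cell and basophil genes (median 1.40, summed level 7.30 to 9.07 against 8.46 to 9.89, Gzmb and Cma1 at 0). All 6 macrophage genes were higher (median 1.16, summed level 8.19 to 10.1 against 9.82 to 11.1, C1qa and C1qc at 0). Granulocyte genes had a median of 0.06 (6 of 7 higher, summed level 13.2 to 14.1 against 13.6 to 14.2, Ltf and Camp at 0). The 2 measured lymphoid genes were lower (median -0.80, summed level 8.36 to 9.56 against 7.72 to 8.68), and the 7 listed at 0 were Cd79a, Vpreb3, Ms4a1, Cd3e, Cd3g, Cd4 and Cd8a. The part of these cells in the results below was not tested, and in bulk RNA fewer cells of a type and less RNA per cell cannot be told apart.

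Ribosomal protein messengers were among the brightest signals in these cells. The median member lay at log2 12.7, against 7.72 for all measured genes, and members made up 23 of the 50 brightest and 33 of the 100 brightest genes. Rpsa, the laminin-receptor protein of the small subunit, had the highest mean level of any member at 13.6. Levels of different genes rest on different probes and are not per length, so their order describes signal and not messenger number. Of the 42 members, 34 had a mean of at least 12. The other 8 were Rps19, just under that level at 11.98, Rpl14, Rps19bp1, Rps6, Rpl12, Rps25, Rpl39 and Rpl37, the last at 3.59. Replicates agreed closely: the median within-group SD of the members was 0.06, against 0.28 for all genes and 0.10 for the 117 other genes at 12 or more. Those other genes were dimmer, with a median level of 12.34 against 12.85 for the members at 12 or more. The part of signal level in the spread was not tested.

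Most ribosomal protein genes read slightly higher in Msi2 KO cells, by a few percent, and no single gene passed the test. Of the 42 members, 31 had a higher mean in KO and 11 a lower one, where 50.4% of all genes were higher. The median difference was 0.06 (4.12%) against 0.00 for all genes. The linear model of limma, fitted on all 10720 genes with Benjamini-Hochberg adjustment, called 0 members at adjusted p under 0.05, as it called 0 of all genes (0%). The smallest adjusted p of a member was 0.392. At unadjusted p under 0.05, 1 member was higher (Rps25) and 0 were lower, while 5.74% of all genes were higher and 5.66% lower.

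The separation of the groups gave another view of the same values. In 6 members every KO array lay above every control, and in 0 members every KO array lay below, against 3.63% and 3.48% of all genes. The 6 were Rpl8, Rpl19, Rpl27a and Rplp2 of the large subunit and Rps10 and Rps19 of the small subunit. Each gave p = 0.0286 in an exact permutation test (two-sided), the smallest that 4 against 4 arrays allow. Full separation of the groups fixes this value, so the test adds nothing to the count. With each array centred on its median the count was 3 (Rpl6, Rpl19 and Rps10), and leaving out KO 1 made it 11. Limma's default prior pulls each gene's variance towards that of all genes, and the smallest standard error of a member was 0.108, although the median within-group SD of the members was 0.06. With a prior that follows intensity and is robust to outlying genes, 11 members were at unadjusted p under 0.05 and higher, against 5.77% of all genes, and again 0 passed the adjusted threshold. Those 11 were Rpl6, Rpl8, Rpl10a, Rpl19, Rpl22, Rpl27a, Rpl41, Rplp2, Rps10, Rps19 and Rps25, with adjusted p from 0.257 to 0.432 in that limma fit.

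**Figure D1:**
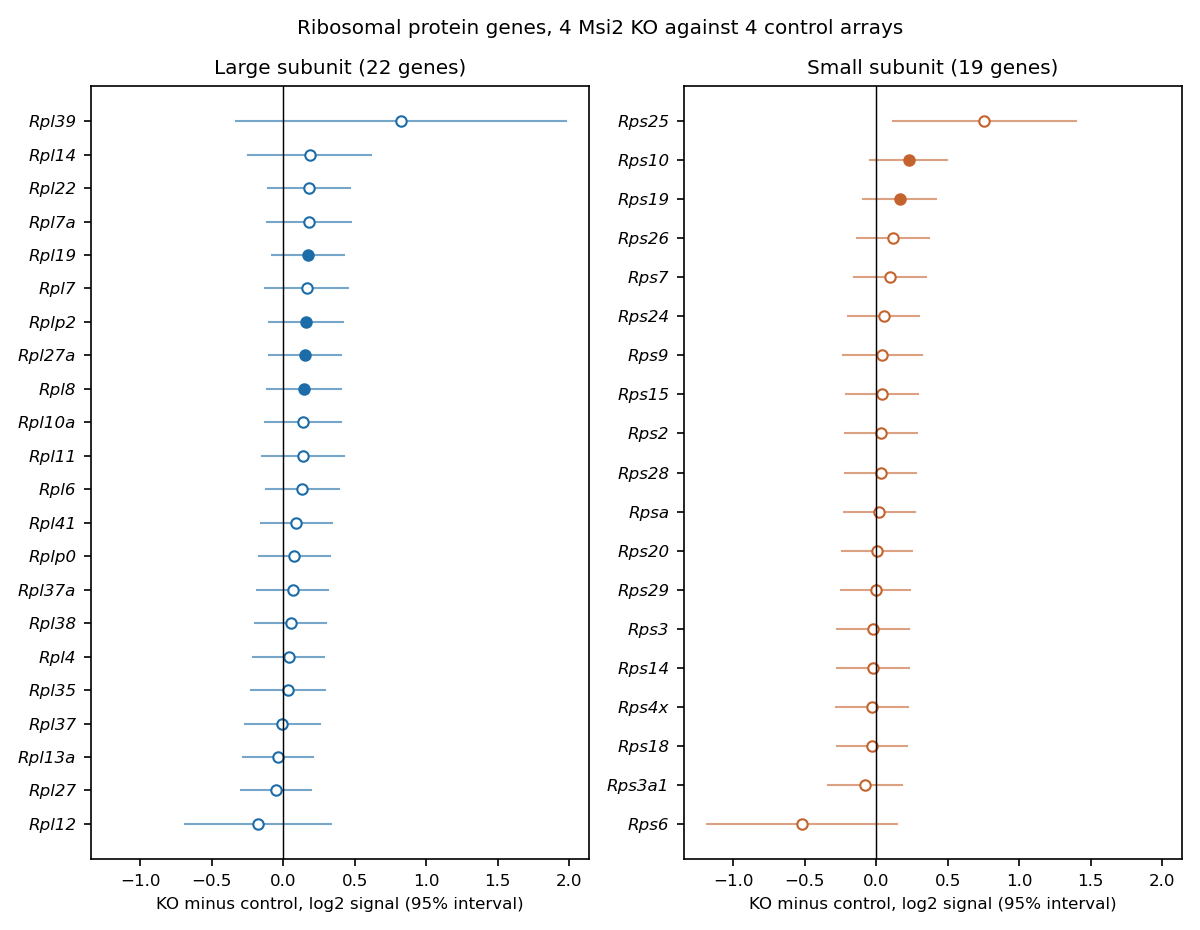
KO minus control log2 signal (x axis) of each measured ribosomal protein gene (y axis) by subunit, with limma's 95% interval; filled points are genes whose 4 KO arrays all lay above the 4 controls. In the large subunit 18 of 22 points lie above 0, in the small subunit 12 of 19, and Rps25 is the only gene whose interval does not cross 0.

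The large subunit read further above the controls than the small subunit. Its 22 genes had a median difference of 0.14 (9.87%), with 18 higher, whereas the 19 small subunit genes had a median of 0.03 (2.09%), with 12 higher. The median deviation of the large subunit genes from their control means was -0.04, -0.00, 0.03 and 0.01 on controls 1 to 4. On KO 1 to KO 4 it was 0.07, 0.05, 0.12 and 0.15. The KO arrays thus lay above all controls. For the small subunit the controls were at -0.02, 0.00, -0.03 and 0.03 and the KO arrays at 0.04, 0.03, 0.01 and 0.07, and the groups overlapped because control 4 lay above KO 2 and KO 3.

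The gap between the subunits was 0.11 in the medians. Taken array by array, large minus small was -0.02, -0.00, 0.05 and -0.02 on the controls and 0.03, 0.02, 0.10 and 0.07 on the KO arrays. Control 3 exceeded KO 1 and KO 2, so the gap itself did not separate the groups, and its size without KO 3 was 0.07. The 117 other genes with a mean of at least 12 had a median difference of -0.04, with 47 higher. Because RMA makes array distributions alike, values of the members and of other bright genes are not independent. KO 4 and KO 3, with the largest deviations of the large subunit, were also the arrays with the least Msi2 signal, and KO 1 and KO 2, with smaller deviations, were the KO arrays with low Xist. With 4 KO arrays the part of the Msi2 level was not tested. Xist entered only as a covariate in an alternative setting described below. Over 8 arrays, control 1, the control with low Xist, held the lowest value for 10 of the 22 large subunit genes.

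**Figure D2:**
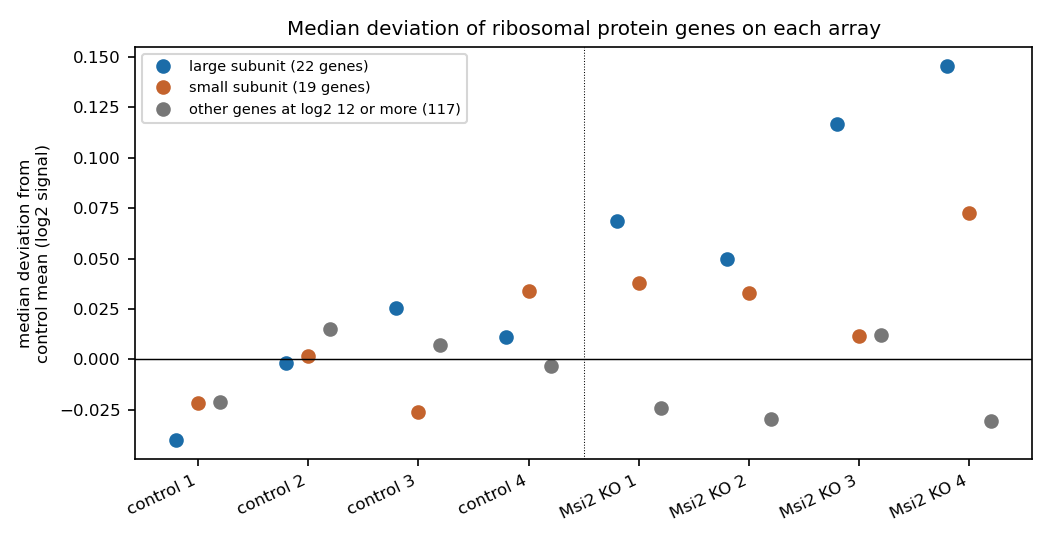
Median deviation from the control mean in log2 signal (y axis) on each of the 8 arrays (x axis) for the large subunit, the small subunit and the 117 other genes at log2 12 or more. The large subunit lies between 0.05 and 0.15 on the KO arrays and no higher than 0.03 on the controls, whereas small subunit values of the groups overlap.

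The gap was also read within bands of signal. Between log2 12 and 13, 11 of 12 large subunit genes and 8 of 10 small subunit genes were higher, with medians of 0.14 and 0.04. At 13 or more the medians were 0.06 (5 of 6 higher) and -0.01 (2 of 6 higher). It was smaller on 1 type of probe set. On probe sets whose name ends in _x_at, which share sequence with other transcripts, the medians were 0.03 for 5 large and 0.02 for 6 small subunit genes, against 0.14 and 0.04 on the other probe sets. When probe sets shared with processed copies were counted for all ribosomal proteins, 67 genes were measured, and the gap was 0.03: 34 of 41 large subunit genes were higher (median 0.07) and 18 of 26 small subunit genes (median 0.04). Among the genes gained this way the order was reversed. Their medians were 0.067 for 19 large subunit genes and 0.097 for 7 small subunit genes.

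Among large subunit proteins, the P stalk recruits elongation factors to the ribosome. Rplp2, one of its acidic proteins, read 13.30, 13.33, 13.45 and 13.42 on controls 1 to 4 and 13.51, 13.49, 13.49 and 13.65 on KO 1 to KO 4. All KO arrays were above all controls, KO 4 being the highest, and the difference was 0.16 (SE 0.11, limma adjusted p = 0.640). Rplp0, the stalk base, differed by 0.08, with KO 2 at 12.23 below control 2 at 12.26 and control 4 at 12.24. Rpl11, which with Rpl5 and the smallest ribosomal RNA can bind the p53 inhibitor Mdm2, differed by 0.14, with KO 3 the highest array at 12.97 and KO 1 and KO 2 within the controls. Rpl12, beside the stalk, was dim on its single-gene probe set and differed by -0.18, whereas a bright probe set shared with copies gave 0.24 and another -0.00.

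Rpl19, which forms a bridge between the subunits, gave a narrow separation. Its log2 signals were 12.61, 12.64, 12.70 and 12.60 on the controls and 12.73, 12.78, 12.88 and 12.84 on the KO arrays. The lowest KO value exceeded the highest control by less than the spread within either group, and the mean difference was 0.17 (12.6%, SE 0.11, limma adjusted p = 0.593). Rpl22, a protein lost or mutated in some T-cell leukaemias, read 12.64, 12.75, 12.87 and 12.82 on the controls against 12.86, 12.80, 13.08 and 13.06. KO 1 and KO 2 lay within the controls, and its difference was 0.18 on a probe set ending in _s_at. Rpl8 and Rpl27a, named after their values were seen, differed by 0.14 and 0.15.

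**Figure D3:**
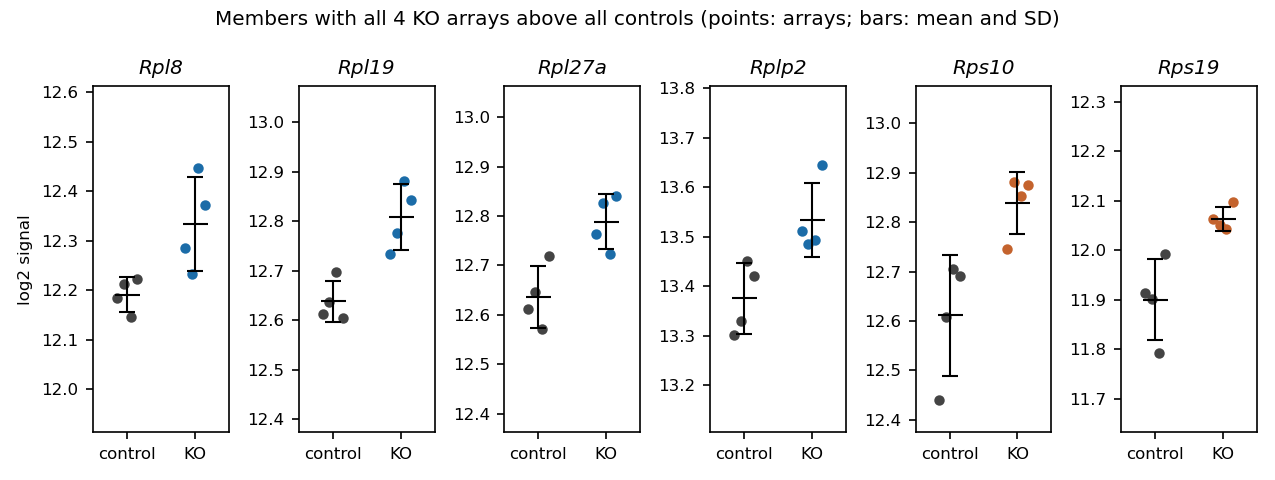
Log2 signal (y axis, a span of 0.7 in each panel) of the 6 members whose KO arrays all lay above the controls; points are arrays and bars the mean and SD of 4 arrays. The group means differ by 0.14 to 0.23 log2, and Rplp2 on KO 4 lies apart from the other 3 KO arrays.

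Other large subunit genes were flat or slightly lower. Rpl38, whose loss in mice alters translation of Hox messengers and the axial skeleton, read 13.11 to 13.27 on the controls and 13.24 to 13.26 on the KO arrays, a difference of 0.05 on an _x_at probe set. Rpl13a, known for a role outside the ribosome in interferon-induced silencing of translation, differed by -0.04 on another _x_at probe set, with all 8 arrays between 13.29 and 13.39. Rpl27 differed by -0.05, its KO arrays (12.77 to 12.83) overlapping the controls (12.82 to 12.90). Rpl37 was close to the lowest signals on the array at 3.59, with no difference on that probe set (-0.60%) and 0.03 on its brightest shared one.

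In the small subunit, all 4 measured probe sets of Rps10 differed in the same direction. Rps10 lies near the messenger entry channel, and its mutation is a cause of Diamond-Blackfan anaemia. On the brightest probe set, its log2 signals were 12.44, 12.61, 12.70 and 12.69 on controls 1 to 4 and 12.75, 12.88, 12.85 and 12.87 on KO 1 to KO 4. All 4 KO arrays were above all controls, and control 1 was the lowest array. The difference was 0.23 (17.0%, 95% interval -0.04 to 0.50, limma adjusted p = 0.509). The other 3 measured probe sets of Rps10 gave 0.30, 0.23 and 0.26, and each separated the groups, though all 4 read the same RNA samples. Over the 20 alternative settings tried, the difference of Rps10 ranged from 0.17 to 0.26.

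Rps19 is the gene most often mutated in Diamond-Blackfan anaemia and takes part in maturation of the small subunit. It read 11.91, 11.90, 11.79 and 11.99 on the controls and 12.06, 12.05, 12.04 and 12.10 on the KO arrays. The KO arrays lay within 0.06 of each other and above every control, with a difference of 0.16 (11.96%, SE 0.11). A dim probe set of Rps19 shared with copies differed by -0.24 with overlapping groups. Rps19bp1 differed by 0.32, from 8.31 to 9.15 on the controls and 8.95 to 9.40 on the KO arrays.

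Of the genes mutated in Diamond-Blackfan anaemia, 22 were listed and 12 measured, with 10 higher in KO and a median of 0.04. Rps26 differed by 0.12, with KO 2 to KO 4 at 12.35 to 12.38 and KO 1 at 12.22 among the controls (12.19 to 12.25). Rps14, whose loss is linked to the 5q- syndrome, differed by -0.02 on an _x_at probe set: the controls lay at 12.76 to 12.78, and the KO arrays at 12.63 to 12.84. Rps29 was the flattest of the named genes, at 13.30 to 13.35 on the controls and 13.29 to 13.35 on the KO arrays.

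The remaining bright small subunit genes straddled 0. Rps3a1 had the most negative difference of these (-0.08), KO 2 being the lowest array at 12.90 against 13.06 to 13.16 on the other arrays. Rps18, in the head of the small subunit, differed by -0.03 on its brightest probe set, 0.20 with separated groups on another bright one and -0.50 on a dim one. Rps4x, encoded on the X chromosome, differed by -0.03, with the low-Xist arrays at 12.84, 12.91 and 12.84. Rpsa differed by 0.02 and turned to -0.00 under 3 of the alternative settings.

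The largest differences among the chosen probe sets came from dim ones and were not shared by bright probe sets of the same genes. Rps25, a small subunit protein needed for initiation at several viral internal entry sites, read 7.18, 8.05, 8.13 and 7.43 on the controls and 8.22, 9.02, 8.62 and 7.96 on the KO arrays of its only single-gene probe set. KO 4 lay within the controls, and the difference was 0.76 (SE 0.29, limma p = 0.0259, adjusted p = 0.392, exact permutation p = 0.114). The bright Rps25 probe set shared with copies, at a mean of 12.98, gave 0.13. Without control 1, control 4, KO 2 or KO 3 in turn, Rps25 was no longer at unadjusted p under 0.05.

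Rpl39, a small X-linked protein at the peptide exit tunnel, differed by 0.83 with all 4 KO arrays and by 0.21 without KO 1. KO 1 read 8.66, the other KO arrays 6.23, 5.98 and 6.39 and the controls 5.93 to 6.06, while the bright shared probe set gave 0.08. Rps6, the substrate of the S6 kinases, read 8.87, 9.28, 8.37 and 8.59 on the controls and 8.998, 7.94, 8.38 and 7.72 on the KO arrays. Its groups overlapped, with a difference of -0.52 (SE 0.30), and the brightest shared probe set gave 0.01. Chosen after its values were seen, a dim Rps24 probe set read 5.97 to 6.98 on the controls and 4.12 to 5.73 on the KO arrays, a difference of -1.63 (limma adjusted p = 0.323, exact permutation p = 0.0286). That exact p is fixed by the separation of the groups and adds nothing to it. The other 4 measured Rps24 probe sets, all bright, differed by -0.01 to 0.05.

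Over all 181 measured probe sets of ribosomal proteins, including those shared with copies, the bright ones leaned one way. Of the 131 at log2 12 or more, 98 were higher in KO, 23 had all KO arrays above all controls and 0 had all below, where the shares over all 24404 measured probe sets were 3.12% and 2.96%. Of the 50 dimmer ones, 24 were higher, with 1 separated above and 3 below. These probe sets are not independent, since several read the same gene or its copies. Genes outside the rule that gained a value this way included Rpl10, Rpl13, Rpl17, Rplp1 and Rps13, the 5 of 26 with separated groups, named after their values were seen.

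**Figure D4:**
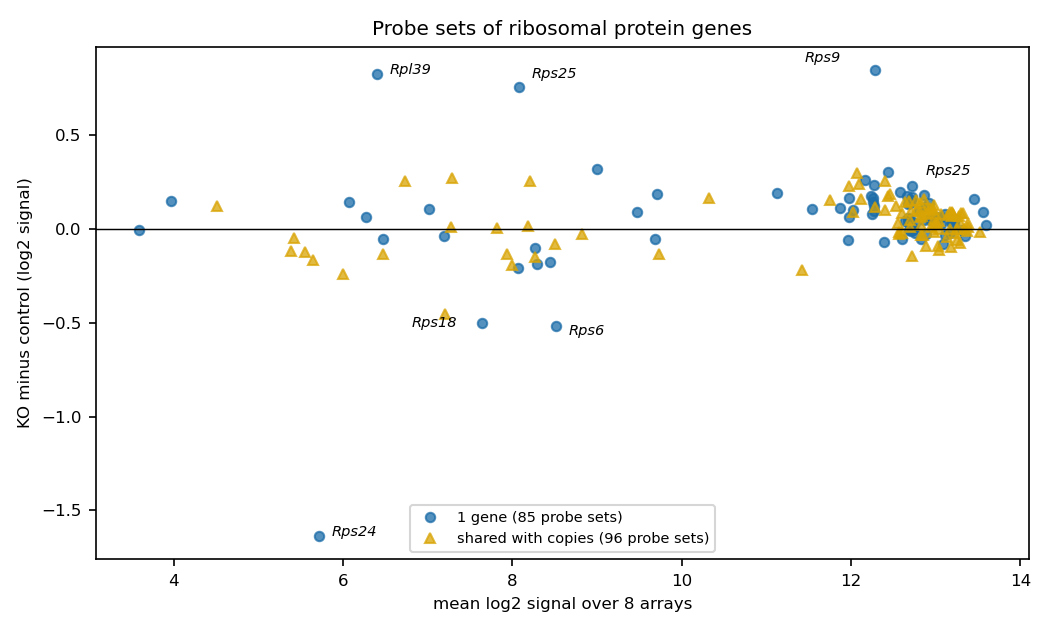
KO minus control log2 signal (y axis) against mean log2 signal over 8 arrays (x axis) for 85 probe sets that name a single ribosomal protein gene and 96 shared with copies. Bright probe sets cluster just above 0, and most differences beyond 0.5 in size lie on dim ones; the exception is a Rps9 probe set whose control 4 value is low.

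Genes that work with ribosomal proteins gave mixed values. Ribosomal protein paralogues, some of which can replace a standard protein in the ribosome, were higher in 4 of 4 measured genes (median 0.36), while Rpl3l and Rpl39l were listed at 0. Rps27l differed by 0.33 (limma adjusted p = 0.428) and Rpl22l1, the paralogue of Rpl22, by 0.39 (adjusted p = 0.436). Fau, which encodes a small subunit protein fused to a ubiquitin-like tag, differed by 0.14. Elongation factors and other TOP messengers were higher in 3 of 10 genes, with a median of -0.01. In that list Pabpc4 differed by 0.61 (adjusted p = 0.342) and Pabpc1 by 0.20, whereas the elongation factor Eef1a1, as bright as the ribosomal proteins, differed by -0.01.

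Growth signalling to TOP messengers, the mTOR pathway and its targets, was higher in 11 of 16 genes (median 0.05), with 0 past the adjusted threshold. Tsc2, an inhibitor of mTOR complex activation, differed by 0.79 (limma adjusted p = 0.310), and Eif4ebp1, a repressor of cap-dependent initiation, by 0.57 (adjusted p = 0.403). Ribosomal protein chaperones and partners were higher in 8 of 15 genes, with a median of 0.02. Pdcd2, the chaperone of Rps2, differed by 0.46 (adjusted p = 0.287), and Grwd1, the chaperone of Rpl3, by 0.55 (adjusted p = 0.299).

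The promoter letters were set beside the differences as a description. The 17 measured genes with the looser pyrimidine run had a median difference of 0.14, and the 19 without it 0.04. For the stricter run at the start the order was reversed, 0.05 with (7 genes) and 0.07 without (29 genes). For CCGGAAG the medians were 0.09 with (19 genes) and 0.04 without (17 genes). GGGCGG gave 0.05 with (21 genes) and 0.07 without (15 genes). TATAAA gave 0.08 with (5 genes) and 0.05 without (31 genes), and AAGATGGC 0.07 with (2 genes) and 0.06 without (34 genes). The looser run was found in 10 of 20 large subunit windows and 8 of 18 small subunit windows. Among the printed stretches, Rps10 and Rplp2 belong to genes with separated groups, whereas Rpl38, Rpl35 and Rps18 had differences between -0.03 and 0.05 on their chosen probe sets and Rps6 had -0.52, the most negative of all members.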

How the data were processed

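The log2 signals were used as the authors deposited them, 1 column per array. They were made by RMA per the submitters' processing notes, and its version and settings are not given in the sources used here. Of 45101 probe sets, 20664 (45.8%) were listed at 0 on all 8 arrays and 0 on some arrays only. The step that set them to 0 is not stated, and they were left out. RMA had already made array distributions alike, so a shift shared by all genes cannot be seen. The number of arrays limits the precision.

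Probe sets were named through the platform annotation, with symbols updated by gene ID. For each gene the probe set with the highest mean over 8 arrays was kept. The groups were compared over all 10720 genes by a linear model per gene with moderated variances and no covariates (R 4.3.3; limma 3.58.1; two-sided), with Benjamini-Hochberg adjustment at 0.05. An exact permutation test over arrays was run for single genes. The fit was tested on simulated data.

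Named members were those at p under 0.05, the 4 with the smallest p in each direction and subunit, the 3 with the widest and the 3 with the narrowest spread, and a set of well-known genes. From each related list, the 2 genes with the smallest p were named. Members and lists were chosen with earlier results of these data known. Motifs were counted in RefSeq promoter windows of GRCm38.p6, any window of a gene sufficing. Marker levels are log2 of the summed linear signals.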

Additional observations from a re-analysis of the deposited data

Results flagged for a closer look

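In groups of 4 arrays, 3 of 52 groups tested held an array far from the other three, where chance gives about 1 group in 20. Rpl39 read 8.66 on KO 1 against 5.98 to 6.39 on the other KO arrays. Rplp2 read 13.65 on KO 4 against 13.49 to 13.51 on the other KO arrays, a gap of a different size on a gene with a narrow spread. A bright Rps9 probe set ending in _x_at read 9.30 on control 4 against 12.5 to 12.9 on the other controls. That probe set is not the one chosen for Rps9, so it enters none of the counts over genes.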

How the results depend on the processing

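Across 20 alternatives, 18 planned and 2 chosen after seeing the data (probe sets shared with copies, and members below log2 12 left out), 0 members passed the adjusted threshold, and 16 of 22 named members kept their direction under every alternative that gave them a value (18 to 20 alternatives each). The count of members with separated groups was 3 after median centring and 6 to 11 with 1 array left out. Fewer arrays separate more easily, so the latter counts are not comparable with the count over 8 arrays. The count at unadjusted p under 0.05 was 11 higher with an intensity trend and robust prior; it was 0 higher with array weights, shared copies or members below 12 left out, and 0 to 1 without an array. The lower count was 1 with the mean of all probe sets, without _x_at and _s_at probe sets and with array weights, and 0 to 1 without an array. Without _x_at and _s_at probe sets the small subunit median was -0.00068. With shared copies, over the original members alone, the large subunit median was 0.0877 and the gap between subunits 0.0552. Over all 67 genes measured that way they were 0.0725 and 0.0350. Without an array in turn, the large median ranged from 0.0995 to 0.160, the small from 0.0170 to 0.0356, the gap from 0.0710 to 0.142 and the higher count from 29 to 34.

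Signs turned under some setting for 6 named members, all but Rps6 within 0.1 of 0, and the cause was not tested. Rpsa was -0.00083 after median centring, -0.0028 with Xist as a covariate and -0.0014 to 0.0419 with 1 array left out, the lowest without KO 2. With the mean of all probe sets Rpl13a was 0.0511 and Rps29 0.0328. Rps14 was 0.0120 with array weights and -0.0549 to 0.0156 with 1 array left out, the highest without KO 3. Rpl37 was -0.0375 to 0.0318 with 1 array left out (above 0 without control 2 or KO 3) and 0.0301 with shared copies, where Rps6 was 0.0102. Rps29 was -0.0177 to 0.0060 with 1 array left out, above 0 without control 3, KO 3 or KO 4. Same-numbered arrays did not deviate together (correlations 0.137, -0.172, 0.0751 and -0.0207), and the labels give no pairing. With so few arrays these correlations cannot exclude that the numbers pair the mice. With the replicate block the counts stayed at 1 higher and 0 lower.

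In a simulation of this comparison over 10720 genes, 0 of 200 genes given a log2 change of 0.25 passed the adjusted threshold, against 118 of 200 at 1 and 184 of 200 at 2. False calls among the other genes numbered 0, 7 and 11. The 200 genes were drawn from all genes, whose median within-group SD was 0.28 against 0.06 for the members. The simulation therefore does not give the power for the members. Most member differences were smaller than 0.25.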
